A study of Mus musculus with 13 samples.

Results

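Proteoglycans are matrix and cell-surface proteins that carry chains of sulfated sugars, the glycosaminoglycans. The 10 genes described here encode 8 small leucine-rich proteoglycans (Dcn, Bgn, Aspn, Lum, Fmod, Prelp, Ogn and Podn) and 2 large matrix proteoglycans (Vcan and Acan), and were chosen by gene symbol out of the 20270 genes in the deposited lung tables. All 10 were found, and 9 of them passed the filter on low counts that left 15315 genes for testing. Acan did not pass.

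Lung mRNA was sequenced from 13 mice. The 4 control mice were wildtype, had received vehicle and are numbered 3, 21, 24 and 26 in their labels. The 5 wildtype (WT) bleomycin mice (numbers 4, 2, 5, 4-B2 and 7) and the 4 CB1R KO bleomycin mice (8, 9, 10 and 11) had received bleomycin, a drug that injures the lung and is used to model pulmonary fibrosis, as 1 oropharyngeal dose of 1 U per kg 14 days before tissue was taken. Wildtype mice were male C57BL/6J animals aged 13 weeks, and the CB1R KO mice carry a whole-body deletion of Cnr1, the gene of cannabinoid receptor 1, on the C57Bl/6J background, with age and sex not stated separately for them. A bleomycin-free CB1R KO group was not analysed here, so the comparisons of CB1R KO bleomycin with control differ in both genotype and treatment, and the 2 cannot be told apart there. The RNA came from the lower right lobe, a mixture of all its cells, so that a lower value from fewer cells of a type and one from less RNA per cell cannot be told apart.

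In the extracellular matrix, small leucine-rich proteoglycans bind collagen fibrils through a curved domain of leucine-rich repeats and set how fibrils assemble and how thick they become. Several of them also hold growth factors of the TGF-β family, and biglycan released from matrix is a ligand of Toll-like receptors. The large proteoglycans versican and aggrecan bind hyaluronan and hold water, versican in the provisional matrix of healing tissue and aggrecan in cartilage. Lung fibrosis is a disorder of collagen-rich matrix, made mainly by fibroblasts and myofibroblasts.

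Of the 13 libraries, 12 held between 14615904 and 16662580 estimated counts, and CB1R KO mouse 11 held 53463884, which is 3.33 times the median of the others. Cnr1 itself did not separate the genotypes in these libraries: it was at 4.10, 1.62, 2.88 and 2.06 CPM (counts per one-millionth of the scaled library size) in control, 6.97, 5.68, 6.56, 3.46 and 6.17 CPM in WT bleomycin, and 5.63, 2.47, 4.60 and 3.47 CPM in the libraries labelled CB1R KO. The values of the last 2 groups overlapped, and the difference between them (log2 fold change -0.53, SE 0.28) did not pass edgeR's test (adjusted p = 0.367). Which part of Cnr1 was deleted, and so whether reads from the rest of it would remain, is not given in the sources used here. Genotype is therefore taken from the labels.

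Biglycan made up most of the summed level of these 10 genes in every bleomycin lung, and a smaller share of it in every control lung. Levels are compared between genes in TPM, a share of all transcripts that is scaled for transcript length. In control lungs Bgn stood at 552 ± 47.2 TPM (SD, n = 4), followed by Ogn at 240.3 ± 20.4, Prelp at 204 ± 16.3 and Dcn at 159 ± 25.4 TPM. The ranges of Ogn and Prelp and those of Prelp and Dcn overlapped, whereas Bgn stood clear of all 3. A lower tier held Podn at 22.4 ± 5.95, Aspn at 14.6 ± 1.14, Fmod at 6.43 ± 1.07, Lum at 5.97 ± 0.872 and Vcan at 3.02 ± 0.663 TPM, with Podn overlapping Aspn and Fmod overlapping Lum.

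In WT bleomycin lungs the order below Bgn (1149 ± 110 TPM, n = 5) was Dcn, Prelp and Ogn, at 169.8 ± 18.1, 134 ± 22.0 and 99.4 ± 17.4 TPM. Ogn, next after Bgn in control lungs, thus came last of these, and its range overlapped that of Prelp, as did that of Dcn. The next were Podn at 39.5 ± 6.81, Fmod at 31.8 ± 6.40, Aspn at 22.3 ± 4.01, Lum at 18.1 ± 3.56 and Vcan at 14.9 ± 2.49 TPM, each from Fmod on overlapping the one before it. CB1R KO bleomycin lungs had Bgn at 889 ± 131, Dcn at 167 ± 12.0, Prelp at 147 ± 33.4 and Ogn at 128 ± 29.9 TPM (n = 4), with the ranges of the last 3 overlapping from one to the next. Fmod, at 18.4 ± 6.02 TPM there, lay below Aspn at 21.6 ± 5.87 TPM, the reverse of their order in WT bleomycin lungs, although the ranges of the 2 genes overlapped in both groups.

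As a share of the summed TPM of the 10 genes, Bgn made up 45.7% ± 3.53 in control, 68.5% ± 2.16 in WT bleomycin and 62.1% ± 4.37 in CB1R KO bleomycin lungs. The highest control library reached 49.8%, and the lowest bleomycin library of either genotype 57.8%. Ogn went from 19.9% ± 1.79 in control to 5.91% ± 0.846 in WT bleomycin and 9.00% ± 2.19 in CB1R KO bleomycin lungs. Prelp went from 16.9% ± 1.23 to 7.94% ± 0.965 and 10.3% ± 2.19 in the same order. Dcn moved less, with shares of 13.2% ± 2.28, 10.2% ± 1.11 and 11.7% ± 0.792, and control and WT bleomycin libraries overlapped. The summed level of the 10 genes ran from 1187 to 1228 TPM in control, from 1472 to 1857 in WT bleomycin and from 1273 to 1628 in CB1R KO bleomycin libraries, so that neither bleomycin group overlapped control. These shares and sums are descriptions without a test.

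**Figure D1:**
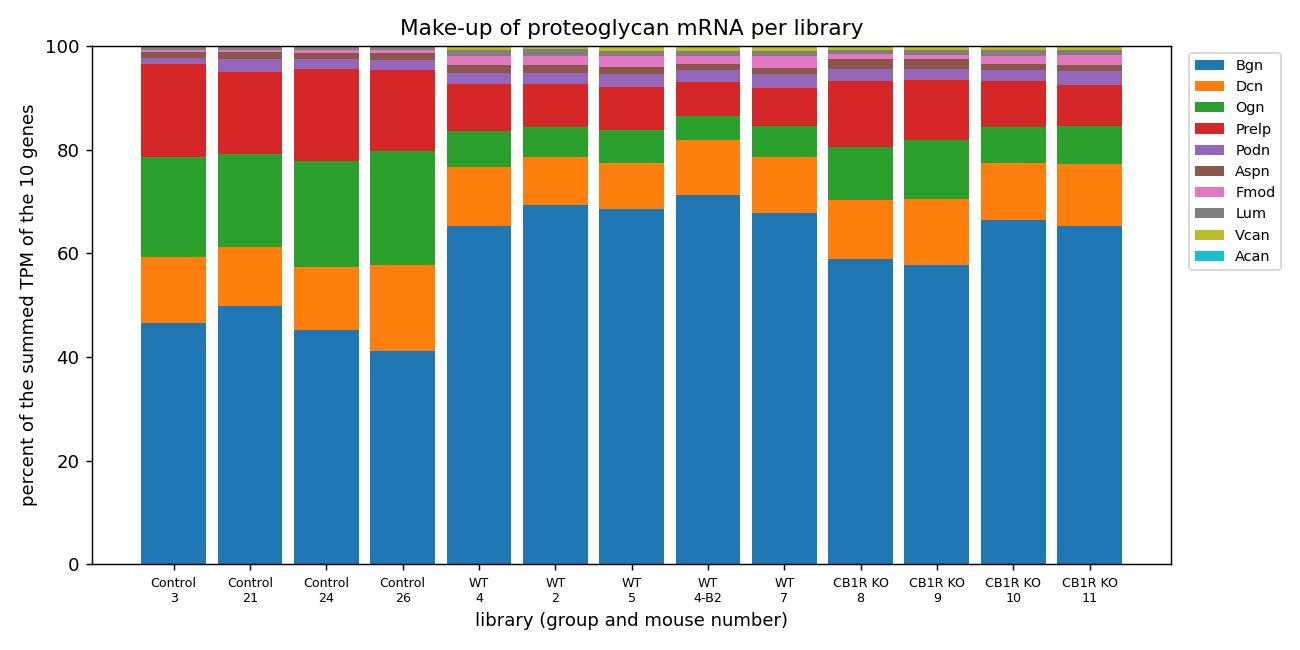
Share of each of the 10 genes in the summed TPM of all 10 (vertical axis, percent) in each of the 13 libraries (horizontal axis, group and mouse number). Bgn (lowest segment) takes 41.3% to 49.8% in control and 57.8% to 71.2% in bleomycin libraries, while the segments of Ogn and Prelp are shorter in all 9 bleomycin libraries than in any control library.

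The comparison of WT bleomycin with control asks what the injury did to these genes. Of the 9 members tested, 6 were higher (Vcan, Fmod, Lum, Bgn, Podn and Aspn), 2 were lower (Ogn and Prelp) and Dcn was not called, where 48.9% of all genes tested passed the same threshold, 25% as higher and 23.9% as lower. The 2 groups did not overlap for 8 of the 9, against 40.3% of all genes tested. The median log2 fold change of the 9 was 0.80, and that of all genes -0.0083. Fold changes and tests below come from edgeR's quasi-likelihood test on rounded counts, with p-values adjusted over all 15315 genes.

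Among the class I members, biglycan (Bgn), which carries chondroitin or dermatan sulfate chains and binds collagen, measured 864, 962, 882 and 800.5 CPM in control lungs. WT bleomycin lungs had 1544, 1946, 1819, 1690 and 1922 CPM. The lowest WT bleomycin library thus lay well above the highest control. The rise was 2.03-fold (log2 1.02, SE 0.10, adjusted p = 2.26e-06).

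Decorin (Dcn), the closest relative of biglycan and an inhibitor of TGF-β, did not follow it. It measured 167, 154, 165 and 224 CPM in control and 189, 181, 163, 177 and 212 CPM in WT bleomycin lungs, with the highest value of all in control mouse 26. The groups overlapped, and the log2 fold change of 0.06 had a 95% interval from -0.17 to 0.28 (adjusted p = 0.679). That interval does not reach the change seen for Bgn.

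Asporin (Aspn), a class I protein with a stretch of aspartates and no glycosaminoglycan chain, rose by less than biglycan. It was at 19.9, 24.1, 20.8 and 23.6 CPM in control and 35.0, 39.9, 30.6, 26.5 and 32.3 CPM in WT bleomycin lungs. Every WT bleomycin value was above every control value, and the rise was 1.49-fold (log2 0.57, SE 0.16, adjusted p = 0.00859). In the GENCODE annotation of build GRCm38 an exon of Aspn shares bases with Cenpp, so reads from that stretch could have been divided between the 2 genes.

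The class II members carry keratan sulfate or none and went in both directions. Fibromodulin (Fmod), which guides collagen fibril assembly and cross-linking, was at 10.2, 13.5, 16.0 and 14.2 CPM in control and 52.9, 68.8, 71.5, 49.6 and 80.1 CPM in WT bleomycin lungs. This was a 4.80-fold rise (log2 2.26, SE 0.22, adjusted p = 2.05e-06), with the lowest WT bleomycin value far above the highest control.

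Lumican (Lum), which limits the thickness of collagen fibrils, rose 2.94-fold (log2 1.55, SE 0.17, adjusted p = 4.16e-06). Its control values were 8.74, 8.71, 9.09 and 12.05 CPM, of which the last, mouse 26, stood apart from the other 3. WT bleomycin lungs had 29.5, 34.2, 28.2, 20.5 and 29.3 CPM, all above control.

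The third class II member, Prelp, which links basement membrane heparan sulfate to collagen, fell. It was at 515, 476, 535 and 467 CPM in control and 328, 358, 344, 239.8 and 323 CPM in WT bleomycin lungs. All 5 WT bleomycin values were below all 4 control values, with mouse 4-B2 the lowest, and the fall was 1.56-fold (log2 -0.65, SE 0.14, adjusted p = 0.00137).

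Osteoglycin (Ogn), the class III member, also called mimecan, fell furthest. Control lungs had 379, 369.8, 427 and 457 CPM, and WT bleomycin lungs 174, 169, 179.9, 118 and 180.2 CPM. The groups were separated by more than the whole range of either, mouse 4-B2 was again lowest, and the fall was 2.48-fold (log2 -1.31, SE 0.15, adjusted p = 7.04e-06).

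Podocan (Podn), a class V member that binds collagen and restrains smooth muscle cell growth, was at 28.2, 57.4, 46.9 and 47.4 CPM in control lungs. WT bleomycin lungs had 62.1, 76.8, 85.6, 68.2 and 98.6 CPM. The rise was 1.74-fold (log2 0.80, SE 0.17, adjusted p = 0.0015), and the highest control value, mouse 21, came close to the lowest WT bleomycin value, mouse 4.

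Versican (Vcan), the large chondroitin sulfate proteoglycan of provisional matrix, had the highest fitted fold change of the members, with an interval (log2 2.13 to 2.92) that overlapped that of Fmod (1.79 to 2.74). Its control values of 9.75, 12.4, 7.88 and 9.34 CPM compare with 45.7, 52.0, 49.6, 65.5 and 70.6 CPM in WT bleomycin lungs. The rise was 5.75-fold (log2 2.52, SE 0.19, adjusted p = 1.94e-07) and no library came near the other group. On the log2(TPM + 1) scale in limma the order of the 2 genes turned, with 1.99 for Vcan and 2.13 for Fmod.

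Aggrecan (Acan), the versican relative of cartilage, was close to absent. It had 1, 1, 0 and 1 counts in control, 2, 5, 10, 4 and 1 in WT bleomycin, and 2, 2, 3 and 1 in CB1R KO bleomycin libraries, the last of which is the deepest library. No fold is given for it. The 10 markers of cartilage, among them Col2a1, summed to between 5.49 and 8.26 CPM in all 13 libraries, so there was little cartilage RNA in any group.

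**Figure D2:**
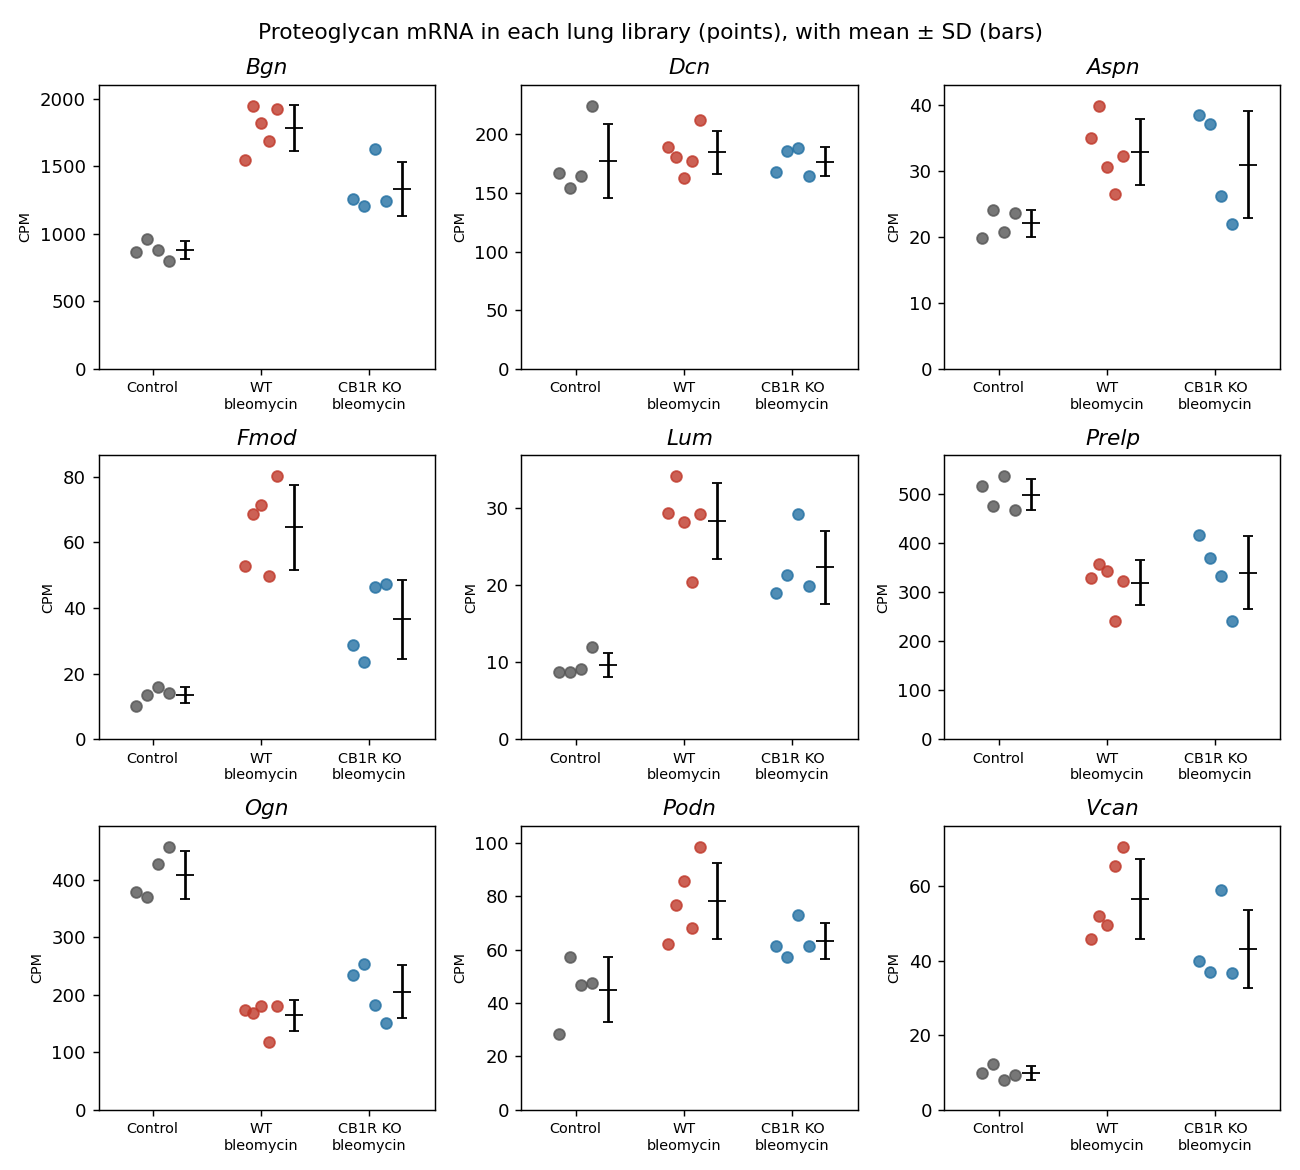
Level of the 9 tested genes in CPM (vertical axis, linear and from 0) in each library (points) of the 3 groups (horizontal axis), with the group mean and SD beside the points (bars). Vcan, Fmod, Lum, Bgn, Podn and Aspn are higher and Ogn and Prelp lower in every WT bleomycin library than in any control library, while the groups of Dcn overlap.

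CB1R KO bleomycin lungs showed the same 6 members higher and the same 2 lower when set against control, where 35.4% of all genes passed, 19% as higher and 16.3% as lower. For 6 of the 9 members the groups did not overlap, against 33.5% of all genes. The control libraries are the same as those in the comparison with WT bleomycin, so the calls of the 2 comparisons are not independent. The log2 fold changes were 2.13 for Vcan (SE 0.19), 1.45 for Fmod (0.23), 1.21 for Lum (0.17), 0.60 for Bgn (0.11), -0.99 for Ogn (0.16) and -0.55 for Prelp (0.15), with adjusted p between 2.84e-06 and 0.00891. Podn (0.49, SE 0.18, adjusted p = 0.045) and Aspn (0.48, SE 0.17, adjusted p = 0.0383) were just past the threshold, and in each of them 1 of the 4 CB1R KO libraries lay inside the control range. Dcn again was not called (-0.01, 95% interval from -0.24 to 0.23). The calls of Podn and Aspn are not firm, since they were lost in 11 and 8 of 25 alternative analyses. Leaving out control mouse 3, 24 or 26 or CB1R KO mouse 8 ended both (adjusted p from 0.0554 to 0.113). CB1R KO mouse 9 ended that of Aspn (0.105), and WT bleomycin mice 2 and 5 and CB1R KO mice 10 and 11 that of Podn (0.0516 to 0.116), whose log2 value was 0.33 without control mouse 3.

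The direct comparison of CB1R KO bleomycin with WT bleomycin lungs asks whether loss of the receptor altered these genes after the same injury. No member passed the threshold in edgeR, where 0.979% of all genes did. At an unadjusted p under 0.05 there were 5 of 9 (Bgn, Fmod, Vcan and Lum lower, Ogn higher), against 17% of all genes, 9.08% lower and 7.95% higher. The log2 fold change was below 0 for 7 of the 9, where 49.9% of all genes were, with a median of -0.31 against 0.0005 for all genes. These 7 include the 6 members that were higher in WT bleomycin than in control. Both comparisons use the same WT bleomycin libraries, so their directions are not independent. DESeq2 called 2 members lower in this comparison, Bgn and Fmod. On all libraries it called 646 of 15315 genes in either direction, where edgeR called 150.

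Fmod differed most. CB1R KO bleomycin lungs had 28.8, 23.7, 46.4 and 47.3 CPM, all below the lowest WT bleomycin value of 49.6 CPM, though mice 10 and 11 were close to it. It was the 1 member of 9 whose groups did not overlap, against 5.6% of all genes and 3.1% in the lower direction. The log2 fold change was -0.81 (SE 0.20, 95% interval from -1.25 to -0.38), and the adjusted p of 0.0695 missed the threshold.

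Bgn had 1259, 1204, 1631 and 1240 CPM in CB1R KO bleomycin lungs. Mice 8, 9 and 11 lay below all 5 WT bleomycin values, and mouse 10 inside their range. The log2 fold change was -0.42 (SE 0.10, 95% interval from -0.63 to -0.21, adjusted p = 0.0625).

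Mouse 10 also gave the highest CB1R KO value of Vcan, Lum and Podn. Vcan was at 40.0, 37.0, 58.9 and 36.8 CPM (log2 -0.40 against WT bleomycin, SE 0.16, adjusted p = 0.236). Lum was at 18.97, 21.3, 29.3 and 19.9 CPM (-0.34, SE 0.15, adjusted p = 0.274), and Podn at 61.6, 57.2, 72.9 and 61.5 CPM (-0.31, SE 0.17, adjusted p = 0.376). For Vcan and Podn the other 3 mice were below every WT bleomycin value, and for Lum 2 of them were. Without mouse 10, Bgn (log2 -0.53, adjusted p = 0.00596), Fmod (-0.94, adjusted p = 0.0297) and Vcan (-0.58, adjusted p = 0.0433) passed as lower. Of all 15417 genes tested without it, 653 passed in either direction, where 150 did with all libraries. Without WT bleomycin mouse 4, Bgn alone of the members did (-0.47, adjusted p = 0.0355), and 230 of 15268 genes passed.

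Of the genes that fell after bleomycin, Ogn had a value above 0 and Prelp one near 0, and neither passed. Ogn was at 235, 253, 183 and 152 CPM in CB1R KO bleomycin lungs, with mice 8, 9 and 10 above all WT bleomycin values and mouse 11 among them (log2 0.32, SE 0.15, 95% interval from 0.01 to 0.64, adjusted p = 0.286). Prelp was at 417, 369, 332 and 240.5 CPM (0.09, SE 0.14, 95% interval from -0.20 to 0.39, adjusted p = 0.775), and its sign turned in lower-case labels only (-0.018) and without CB1R KO mouse 8 (-0.021). Mice 8 and 9 were above and mice 10 and 11 inside the WT bleomycin range.

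The last 2 members showed little difference between the bleomycin groups. Aspn was at 38.6, 37.1, 26.3 and 22.0 CPM, so that mice 8 and 9 were inside and mice 10 and 11 below the WT bleomycin range (log2 -0.10, SE 0.16, 95% interval from -0.43 to 0.24). Dcn was at 168, 186, 189 and 164 CPM, all inside the WT bleomycin range (-0.06, 95% interval from -0.28 to 0.16). These intervals bound the differences of Aspn and Dcn, and do not show them to be 0.

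**Figure D3:**
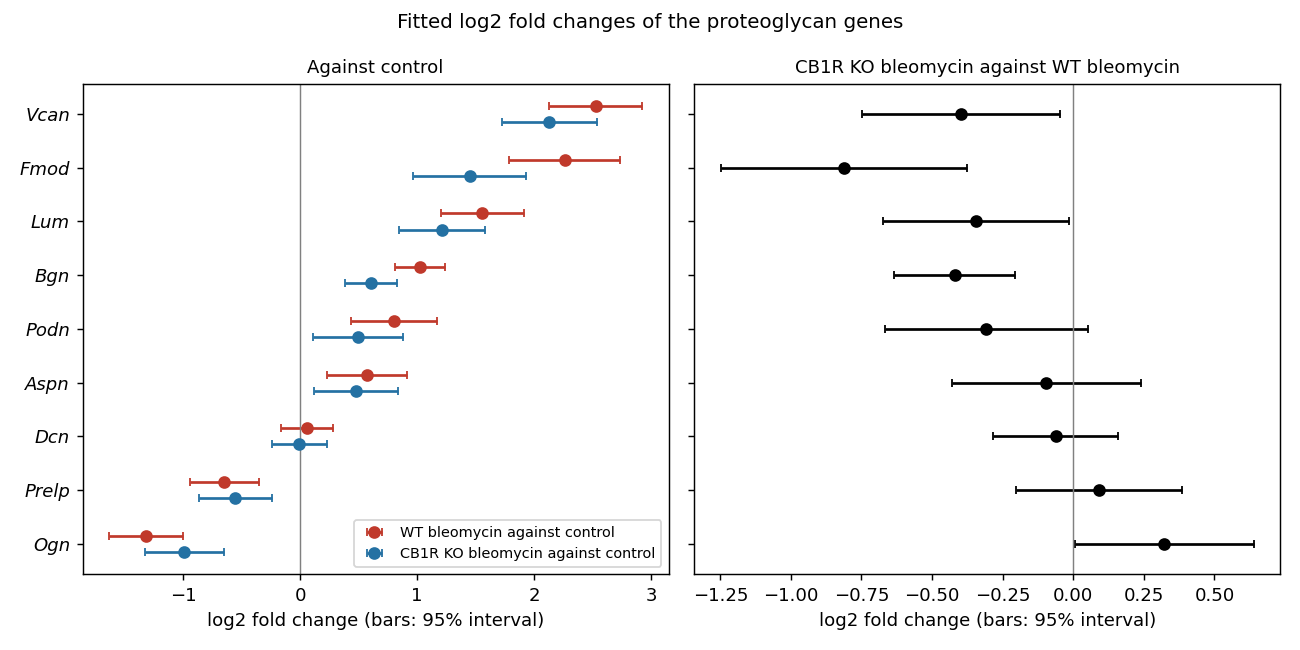
Fitted log2 fold changes (horizontal axes, with 95% intervals as bars) of the 9 tested genes, of both bleomycin groups against control on the left and of CB1R KO against WT bleomycin on the right, on a separate scale. On the left 6 genes are above and 2 below 0 in both groups, and on the right the interval lies below 0 for Fmod, Bgn, Vcan and Lum and above 0 for Ogn, none of which passed after adjustment.

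Most of these genes lie beside relatives on their chromosomes, and some neighbours went in opposite directions. The order of genes was taken from RefSeq (assembly GRCm38.p6), an earlier build than that of the counts. On chromosome 13 the row is Ecm2, Aspn, Omd and Ogn, of which Ecm2 and Omd are small leucine-rich relatives. In WT bleomycin lungs Aspn rose while the 3 genes around it fell, Ecm2 by 1.36 on the log2 scale (SE 0.15, adjusted p = 6.22e-06), Omd by 2.05 (SE 0.27, adjusted p = 2.72e-05) and Ogn by 1.31.

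Ecm2, a matrix protein, was at 33.6, 31.2, 39.5 and 39.5 CPM in control and 15.6, 15.0, 14.3, 10.5 and 14.4 CPM in WT bleomycin lungs. Omd, osteomodulin, was low throughout, with 3.45 to 5.03 CPM in control and 0.438 to 1.20 CPM in WT bleomycin lungs. Neither gene overlapped between these groups, and both were also lower in CB1R KO bleomycin lungs than in control (log2 -1.11 for Ecm2 and -1.33 for Omd).

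On chromosome 1 the order is Optc, Prelp and Fmod. There Fmod rose while Prelp beside it fell, and Optc, the eye protein opticin, was at 0.37 to 1.31 CPM in WT bleomycin and control libraries and did not pass (log2 -0.69, SE 0.40, adjusted p = 0.169). On chromosome 10, where Dcn is followed by Lum, Kera and Epyc, Lum rose and Dcn was not called, while Kera and Epyc, which belong to cornea and cartilage, had at most 2 counts in any library. Vcan, also on chromosome 13 but in another stretch, rose together with its neighbour Hapln1, a link protein that locks versican onto hyaluronan (1.09 ± 0.326 CPM in control and 3.64 ± 1.41 CPM in WT bleomycin, log2 1.74, SE 0.39, adjusted p = 0.00209). Acan and its neighbour Hapln3 were both too low for testing, and Bgn on the X chromosome and Podn on chromosome 4 have no listed relative among the 3 genes on either side.

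**Figure D4:**
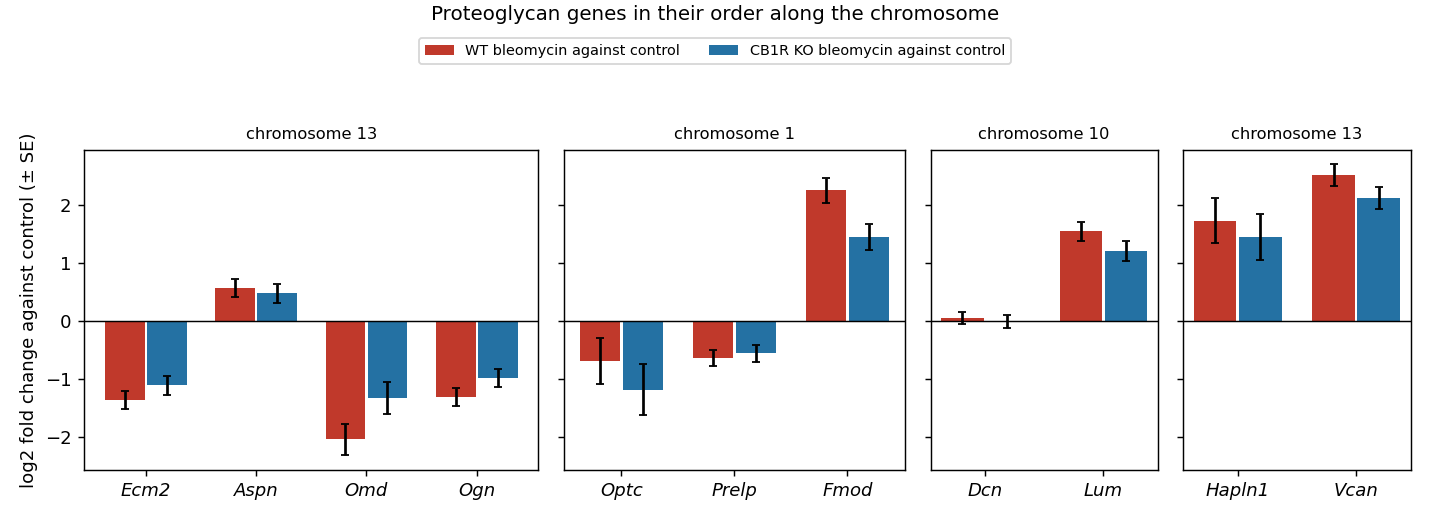
Log2 fold change against control (vertical axis, bars with SE) of proteoglycan genes and their listed neighbours in 4 stretches, in the order they have along the chromosome (horizontal axis), for WT and CB1R KO bleomycin lungs. Aspn points up between Ecm2, Omd and Ogn, which point down, Fmod points up beside Prelp, Lum is up beside Dcn near 0, and Hapln1 and Vcan are both up.

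The RefSeq table of gene starts (assembly GRCm38.p6) held 8 of the 10 members, without Dcn and Lum. For the neighbours that moved apart, the 300 bases from 250 before to 50 after the start are shown, 5′ to 3′ on the gene's own strand, with capitals marking any match on either strand to CAGACA (the core of the SMAD-binding CAGA box), TATAAA (the letters of the TATA box), TGACTCA (an AP-1 site) or GGAATG (a TEAD site). The first pair is Prelp (chr1:133921352-133921651, minus strand), which fell, and Fmod (chr1:134037004-134037303, plus strand), which rose.
Prelp: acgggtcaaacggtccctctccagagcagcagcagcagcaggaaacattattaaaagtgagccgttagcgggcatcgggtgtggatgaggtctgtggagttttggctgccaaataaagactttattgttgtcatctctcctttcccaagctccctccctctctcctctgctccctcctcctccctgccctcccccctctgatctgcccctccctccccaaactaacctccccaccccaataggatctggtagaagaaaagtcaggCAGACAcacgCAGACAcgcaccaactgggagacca
Fmod: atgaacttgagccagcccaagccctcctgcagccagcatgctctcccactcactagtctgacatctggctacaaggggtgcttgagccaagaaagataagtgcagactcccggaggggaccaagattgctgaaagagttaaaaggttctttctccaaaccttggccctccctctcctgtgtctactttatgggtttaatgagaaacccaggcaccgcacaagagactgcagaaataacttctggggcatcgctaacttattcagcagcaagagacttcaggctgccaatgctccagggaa
The second set is Aspn (chr13:49544193-49544492, plus strand), which rose, and Ogn (chr13:49607765-49608064, plus strand) and Ecm2 (chr13:49504560-49504859, plus strand), which fell. The window of Omd, which also fell, is not shown here. It held none of the 4 motifs and was 37.7% G or C.
Aspn: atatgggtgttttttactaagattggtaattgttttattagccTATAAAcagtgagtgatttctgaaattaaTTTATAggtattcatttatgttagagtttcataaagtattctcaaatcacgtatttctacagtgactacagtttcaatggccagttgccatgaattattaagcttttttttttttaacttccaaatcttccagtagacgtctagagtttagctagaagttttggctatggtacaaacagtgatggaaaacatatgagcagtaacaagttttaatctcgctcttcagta
Ogn: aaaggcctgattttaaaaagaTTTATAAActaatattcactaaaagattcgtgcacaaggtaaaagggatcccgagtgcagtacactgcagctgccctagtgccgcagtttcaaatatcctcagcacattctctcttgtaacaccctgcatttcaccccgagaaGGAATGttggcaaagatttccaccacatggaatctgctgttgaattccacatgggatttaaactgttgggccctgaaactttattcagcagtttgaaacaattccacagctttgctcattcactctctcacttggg
Ecm2: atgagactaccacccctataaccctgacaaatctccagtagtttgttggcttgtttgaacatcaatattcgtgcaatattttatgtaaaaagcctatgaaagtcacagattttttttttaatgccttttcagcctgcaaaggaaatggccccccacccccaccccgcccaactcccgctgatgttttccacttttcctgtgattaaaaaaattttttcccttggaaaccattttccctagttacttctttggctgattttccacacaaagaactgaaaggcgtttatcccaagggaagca
Prelp held 2 copies of CAGACA, both after the gene's start, and Fmod held none of the 4 motifs in this window. Aspn held TATAAA once on each strand, far before the start. Ogn held TATAAA on both strands in 1 overlapping match and GGAATG once, and Ecm2 held none. Of all 32851 promoter windows in the table, 21% hold CAGACA, 13.6% TATAAA, 5.2% TGACTCA and 14.7% GGAATG on either strand, so single matches are common. The windows of Aspn (31% G or C), Ecm2 (41%) and Ogn (42.3%) were poorer in G and C than the median window (52.7%), and those of Fmod (51%) and Prelp (55.3%) were near it. A match is a string of letters and was not tested for use by any factor.

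Members also differed in how they varied from mouse to mouse within groups. The deviations of log2 CPM from the group mean were compared over the 13 libraries, which share their depth and their tissue sample across genes, so the correlations are descriptions. Ogn and Prelp, which both fell, deviated together (r = 0.85), and Aspn, which rose, deviated with these 2 (r = 0.79 with each) rather than with the other genes that rose. Bgn went with Vcan (0.70), Fmod with Podn (0.67) and Dcn with its neighbour Lum (0.58). Fmod and Aspn had the most negative value, -0.42.

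Over 15306 other genes, the one most like Ogn within groups was its neighbour Ecm2 (r = 0.97), followed by Angpt1 (0.93), which encodes a ligand of the endothelial receptor Tek. Both also fell in WT bleomycin lungs (log2 -1.36 and -0.86). These 2 genes were picked by likeness to Ogn, so their fall is given as a value only. Bgn was most like Zfp469 (0.96), a zinc finger gene tied to corneal collagen, and Fn1 (0.88), the fibronectin gene. Both rose in WT bleomycin lungs (log2 1.63 and 2.95), and Fn1 was also lower in CB1R KO than in WT bleomycin lungs (-0.86, SE 0.18, adjusted p = 0.0389), a call lost in 12 of 25 alternative analyses, 9 of them without 1 library (adjusted p from 0.05 to 0.144).

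For Vcan the closest were Hmga1 (0.94) and Tgfbi (0.91), and for Podn Bicc1 (0.96) and Eola1 (0.95). Fmod was closest to Rcn1 (0.92) and Pear1 (0.90), and Lum to Topors (0.89) and Serpind1 (0.86). Aspn went with Dedd and Adgrl1 (both 0.91), Dcn with Preb and Iho1 (both 0.91) and Prelp with Bcorl1 (0.94) and Spen (0.93). Each of these was picked as the highest or next highest of 15306 values, and a relation between the genes was not tested.

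**Figure D5:**
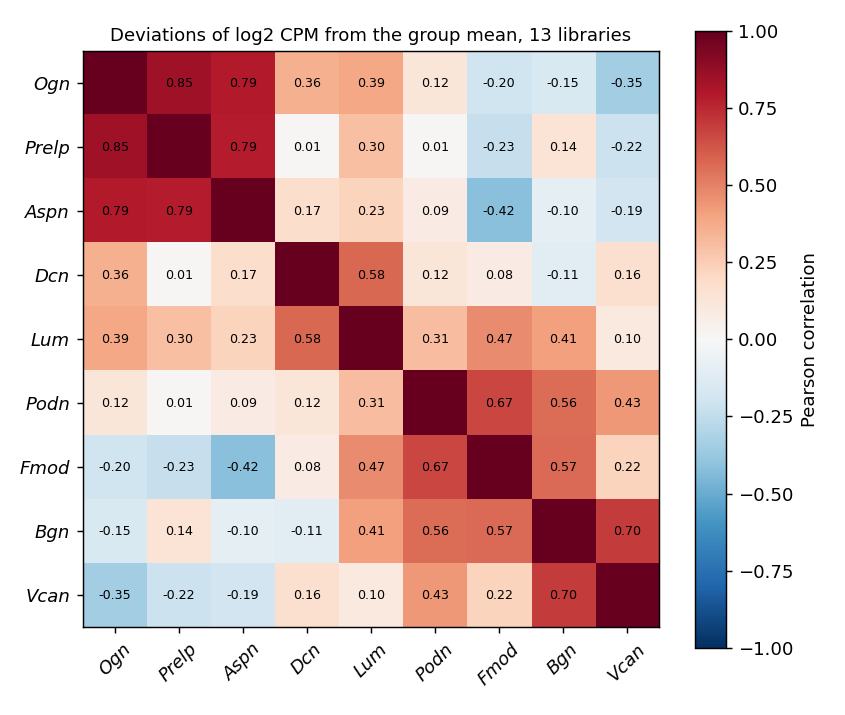
Pearson correlation between members (both axes) of the deviations of log2 CPM from the group mean over 13 libraries, with colour and number giving the value. Ogn, Prelp and Aspn form a block of 0.79 to 0.85. Values among Bgn, Fmod, Podn and Vcan run from 0.22 to 0.70. Those of Lum with the same genes overlap them, from 0.098 with Vcan to 0.47 with Fmod.

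Other genes that make, sulfate, cut and read proteoglycans were counted in lists chosen for their function, to be read against the 25% of all genes that were higher and 23.9% that were lower in WT bleomycin than in control. Of 8 tested small leucine-rich relatives, 3 were lower in WT bleomycin than in control (Omd, Ecm2 and Nyx, the last by 0.81 on the log2 scale) and none was higher, with a median log2 fold change of -0.73. Among 3 tested lecticans and link proteins, Hapln1 was higher and the brain lectican Bcan lower (log2 -1.53, SE 0.32, adjusted p = 0.00119). Of 17 other matrix and cell-surface proteoglycans 11 were higher and 2 lower, with a median of 0.36. Col18a1, a basement membrane collagen with heparan sulfate chains, rose by 1.24 (SE 0.10), Gpc4, a glypican, by 0.75 and Sdc1, a syndecan, by 0.66.

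The enzymes that build the chains showed no shared direction. Of 7 genes for the linkage sugars, 2 were higher (B3galt6 and Xylt1, both log2 0.46) and 1 lower (Pxylp1, -0.33). Of 15 tested genes for chondroitin and dermatan sulfate, 4 were higher and 4 lower. Chsy3, a chondroitin polymerase, rose by 2.14 (SE 0.13, adjusted p = 4.45e-08) and Dse, the epimerase that turns chondroitin into dermatan sulfate, by 0.58 (SE 0.07), while Chst3, a 6-O-sulfotransferase of chondroitin, fell by 1.46 (SE 0.19).

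Of 8 genes for keratan sulfate, the chain of fibromodulin and lumican, 2 were higher and 4 lower, among them B4galt1 (0.67) and the sulfotransferases Chst1 (-0.80) and Chst4 (-1.28). In sulfate supply 2 of 7 tested genes were higher (Slc35b2, 0.49, and Bpnt2, 0.28) and 1 was lower (Papss2, -0.49). The calls of Pxylp1 and Xylt1 were lost in 9 and 3 of the 25 alternative analyses. For Xylt1 these left out control mouse 21 or 24 or WT bleomycin mouse 2 (adjusted p from 0.0549 to 0.0711), and for Pxylp1 they included those without control mouse 3, 24 or 26 or WT bleomycin mouse 4, 2 or 7 (0.0536 to 0.0818).

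Genes that break proteoglycans down were counted in 2 lists. All 7 lysosomal enzymes of chondroitin and dermatan sulfate changed in WT bleomycin lungs, 5 of them upward, among them Hexa (0.87, SE 0.07) and Gusb (1.04, SE 0.11). Of 7 aggrecanases and versicanases, the secreted proteases that cut the large proteoglycans, 3 were higher, 1 was lower and 3 were not called. Adamts9 rose by 1.498 on the log2 scale (SE 0.15) and Adamts1 by 0.87 (SE 0.14).

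Adamts4 (aggrecanase-1), which cuts versican and aggrecan, rose more than any member. It was at 1.31, 1.20, 0.833 and 1.16 CPM in control and 33.3, 40.6, 37.3, 33.2 and 28.4 CPM in WT bleomycin lungs (log2 4.93, SE 0.30, adjusted p = 5.81e-08). CB1R KO bleomycin lungs had 8.83, 12.2, 25.1 and 14.7 CPM, all below the WT bleomycin range and again highest in mouse 10 (log2 -1.18 against WT bleomycin, SE 0.22, adjusted p = 0.0266). The call against WT bleomycin was lost in 8 of 25 alternative analyses (adjusted p up to 0.126), among them those without mouse 8, 9 or 11 (0.0786, 0.105 and 0.0778) or without WT bleomycin mouse 2, 5 or 4-B2 (0.0576, 0.0625 and 0.0668).

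Of the 9 receptors of biglycan, decorin and versican, 7 were higher and 1 lower in WT bleomycin lungs, with a median of 0.51. Cd14, a co-receptor for biglycan, rose by 1.33 (SE 0.10), Tlr2 by 1.07 (SE 0.13) and Cd44, the hyaluronan receptor, by 0.86 (SE 0.08). Among all these lists, 2 genes passed between CB1R KO and WT bleomycin lungs, Adamts4 and Col18a1, where 0.979% of all genes tested did. They were 1 of 7 aggrecanases and versicanases and 1 of 17 other matrix and cell-surface proteoglycans. Col18a1 was at 113, 108, 137 and 131 CPM in CB1R KO and between 142 and 180.5 CPM in WT bleomycin lungs (log2 -0.43, SE 0.10, adjusted p = 0.0478), and this call was lost in 16 of 25 alternative analyses, 10 of them without 1 library (adjusted p from 0.0548 to 0.174; all but control mouse 3, WT bleomycin mouse 4 and CB1R KO mouse 10).

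Markers of several cell types also differed between the groups. Of 10 fibroblast markers, 5 were higher and 1 lower in WT bleomycin than in control. Their summed level was 2362 to 2597 CPM in control, 7153 to 10210 in WT bleomycin and 5675 to 8220 in CB1R KO bleomycin lungs. Collagen genes such as Col1a1 (log2 3.13) and Col3a1 (2.80) led this rise. Pdgfra (-0.07) and Pdgfrb (0.20) were not called, and Tcf21 fell from a mean of 119 to 49.5 CPM. Between CB1R KO and WT bleomycin lungs, 7 of the 10 had a log2 fold change below 0. Tcf21, Mfap4 and Dpt went the other way, with means of 78.0, 817 and 246 CPM in CB1R KO and 49.5, 627.5 and 208 CPM in WT bleomycin lungs. Within the CB1R KO group the fibroblast sum was highest in mouse 10 (8220 CPM) and mouse 11 (7906 CPM), which were also the highest for Fmod. Mouse 11 was, however, the lowest of the group for Vcan (36.8 CPM) and Aspn (22.0 CPM), which also rose after bleomycin. Of 7 smooth muscle markers 3 were higher and 1 lower, with sums of 747 to 925, 785 to 1161 and 649.7 to 840 CPM. Among the markers that passed between CB1R KO and WT bleomycin lungs, Cd248 (log2 -0.88), Tagln (-0.63) and Actg2 (-0.80) were lower, and Sftpc (0.66) and Tek (0.29) higher. They were 1 of 10 fibroblast, 2 of 7 smooth muscle, 1 of 8 epithelial and 1 of 6 endothelial markers, against 0.979% of all genes. Each of these 5 calls was lost without CB1R KO mouse 8, 9 or 11 (adjusted p from 0.0521 to 0.128). Of the 25 alternative analyses, 12 lost the call of Sftpc, 11 that of Tek, 8 that of Cd248, 8 that of Actg2 and 3 that of Tagln. In lower-case labels only, the adjusted p was 0.285 for Tek, 0.24 for Sftpc, 0.15 for Cd248 and 0.126 for Actg2. The part of these markers in the results for the members was not tested.

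Like Ogn and Prelp, cardiac muscle and adipocyte markers went down in WT bleomycin lungs. So did the epithelial and endothelial sums given below. All 7 cardiac markers fell in WT bleomycin lungs, with sums of 727 to 1787 CPM in control, 118 to 476 in WT bleomycin and 493 to 866 in CB1R KO bleomycin lungs. Of 7 tested adipocyte markers 4 fell and none rose, with sums of 60.7 to 193, 18.8 to 94.0 and 46.6 to 171 CPM. These adipocyte sums overlapped between control and both bleomycin groups. WT bleomycin mouse 4-B2, lowest for Ogn and Prelp, had the lowest sum of both lists. It was also the lowest of its group for Fmod, Lum and Aspn, which rose. Control mouse 26, which had the highest sum of both lists in its group, was highest there for Ogn, Lum and Dcn but lowest for Prelp (467 CPM). Within the CB1R KO group, mouse 8 had the lowest adipocyte sum (46.6 CPM) but the highest Prelp (417 CPM). Mouse 11 had an adipocyte sum of 150 CPM and the lowest Ogn and Prelp. The part of cardiac and adipocyte markers in the values of the members was not tested.

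The other lists were macrophages, with 6 of 7 markers higher and sums of 247 to 367, 1063 to 1241 and 757 to 1151 CPM, and classical monocytes, with 1 of 6 higher and 1 lower and sums of 644 to 1762, 789 to 1170 and 676 to 1192 CPM. Mesothelial markers had 1 of 7 higher and 3 lower, with sums of 351 to 446, 341 to 492 and 316 to 432 CPM. Epithelial markers had 1 of 8 higher and 4 lower (31990 to 37330, 18960 to 23730 and 20350 to 26680 CPM), and endothelial markers 1 of 6 higher and 5 lower (3759 to 4625, 3005 to 3277 and 3269 to 3427 CPM). The listed epithelial and endothelial genes were thus present in every library. In these 10 lists no marker was at 0 in all 13 libraries. Cartilage markers had 2 of 10 tested, neither called, and 1 was at 0 in every control library.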

How the data were processed

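Lung mRNA of 13 mice was enriched with oligo(dT) beads, prepared with the NEBNext Ultra II kit and sequenced as paired ends on an Illumina HiSeq. The authors quantified the reads with Kallisto (version not given in the sources used here; build GRCm39 per the labels) and deposited estimated counts and TPM summed per gene over its protein-coding transcripts. The deposited estimated counts are not normalized, and 64.8% of them are over 0.001 from a whole number. Whether the kit marked strand is not given in the sources used here. Of the TPM columns, 1 matches no sample and was not used.

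Counts were rounded, filtered with filterByExpr, scaled by TMM and tested with edgeR 4.0.16 (R 4.3.3, quasi-likelihood test) over all 13 libraries in 3 groups, with Benjamini-Hochberg adjustment over 15315 genes at 0.05. SEs were derived from the F statistic. Samples were grouped by the labels. Control mouse 26 and WT bleomycin mice 4-B2 and 7 have labels in capitals, and no CB1R KO mouse has, so style is unbalanced between the bleomycin groups. What the style marks is not given in the sources used here. Log2 CPM for correlations used a prior count of 2. The procedure was tested on simulated data. Python 3.11.15, pandas 2.3.3 and matplotlib 3.10.9 served for the RefSeq tables and plots. The 25 alternatives changed the filter (none, or at least 10 counts in every library), the scaling (RLE, upper quartile), the test (DESeq2 1.42.0, limma 3.58.1 on log2 TPM with a pseudocount of 1 or 0.1), the libraries fitted, the style of the labels (capital or lower case, as a term or lower case only) and the depth of CB1R KO mouse 11 (thinned), or left out 1 library each.

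The members, lists and tests were chosen with earlier results of these data known. Genes named in the text are the members, Cnr1, up to 3 genes per list with the lowest p in WT bleomycin against control, list genes that passed between the bleomycin groups, neighbours of members, and the 2 genes most like each member. Col2a1, and Cenpp for its shared exon bases, fall outside this rule, and some results the rule reaches are not reported here. Nothing says that mice of a group came from separate litters or cages, and p-values set group differences against the spread between these mice. The deposited tables of single samples were not used here.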

Additional observations from a re-analysis of the deposited data

Results flagged for a closer look

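In 27 tests, of 9 members in 3 groups, 4 libraries stood apart from the rest of their group by Dixon's criterion, which chance meets in about 1 of 20 groups. CB1R KO mouse 10 had 1631 CPM of Bgn, above the other 3 CB1R KO mice, which were at 1204 to 1259 CPM. Control mouse 26 had 12.05 CPM of Lum, where the other 3 control mice were at 8.71 to 9.09 CPM. WT bleomycin mouse 4-B2 had 117.8 CPM of Ogn and 239.8 CPM of Prelp, the lowest of its group in both, where the next were at 169 and 323 CPM. The same mouse had the lowest summed levels of cardiac (118 CPM) and adipocyte (18.8 CPM) markers in its group, and control mouse 26 the highest of its own (1787 and 193 CPM). Mouse 4-B2 was also the lowest of its group for Fmod, Lum and Aspn. WT bleomycin mouse 4-B2 and control mouse 26 both have labels in capitals. The part of these markers or of the label style in the flagged values was not tested.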

How the results depend on the processing

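No paired analysis was possible because no 2 groups share replicate numbers in their labels. Against control, the count of members called stayed within 1.5 times its main value in each of 25 alternatives, from 8 to 9 for WT bleomycin and from 6 to 8 for CB1R KO bleomycin. Between CB1R KO and WT bleomycin, where edgeR called 0 members, DESeq2 called 2, all of them lower, on all libraries and 2 on the 2 groups alone, and leaving out 1 library gave from 0 to 3, with 1 without WT bleomycin replicate 4 and 3 without CB1R KO bleomycin replicate 10. The other 21 alternatives gave 0. Over all genes, the 150 calls between these groups became 646 and 649 with DESeq2, 88 with edgeR on the 2 groups, 93 on TPM with the smaller pseudocount, 41 with the style of the labels as a term, 6 in lower-case labels only and from 1 (without CB1R KO replicate 9) to 653 (without replicate 10) with 1 library left out. The log2 fold changes of 634 member results kept direction and call, 19 lost and 8 gained it, and 14 small ones changed sign, none of them called. For Dcn in WT bleomycin against control this was -0.0064 without Control replicate 21 (up to 0.18 without replicate 26), and for CB1R KO against WT bleomycin 0.045 with the style of the labels as a term. For Dcn in CB1R KO bleomycin against control the values were 0.00087 without a filter, 0.083 and 0.084 on TPM, 0.073 with the style of the labels as a term, 0.13 in lower-case labels only, 0.00092 with replicate 11 thinned, from -0.068 without Control replicate 21 to 0.12 without Control replicate 26, and 0.023 and 0.035 without CB1R KO replicates 8 and 11. Between CB1R KO and WT bleomycin, Aspn ran from -0.22 without CB1R KO replicate 8 to 0.051 without replicate 11, and Prelp to -0.018 in lower-case labels only and -0.021 without CB1R KO replicate 8 (up to 0.23 without replicate 11). The cause was not tested. Acan had at most 10 counts in a library, and 1 in the deepest, and was too low for testing with the main filter.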
